A study of Mus musculus with 18 samples.

Results

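High-fat feeding of mice that lacked exon 2 of Cdh13 was compared with chow feeding in isolated pancreatic islets, using 3 libraries of each diet out of 18 in the series. All 6 libraries came from C57BL/6 mice aged 14 weeks with the genotype "Cdh13 exon2 deleted", so the deletion was shared by both diets. The high-fat group had received that diet for 6 weeks and the other group chow. For a difference of differences, the same diets were set side by side in floxed islets (3 libraries each), in which loxP sites flank the intact exon, and levels in deleted islets at 8 weeks on chow (3 libraries) were used as a further reference. Libraries were assigned by the genotype, diet and age in their labels. The labels name neither the Cre driver nor the composition of the diet, and do not say whether a library held islets of 1 mouse or of several. The p-values therefore measure the spread between libraries, which may be technical.

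Islets are clusters of endocrine cells set in the exocrine pancreas. Beta cells take up glucose, metabolise it in mitochondria and secrete insulin in proportion, and alpha and delta cells secrete glucagon and somatostatin. Excess dietary fat is known to raise the demand for insulin, to supply islets with fatty acids that are oxidised in mitochondria, and to burden the endoplasmic reticulum and the defences against reactive oxygen. Islets are freed from acinar tissue by digestion and hand picking, and acinar cells are so rich in enzyme mRNA that a few of them leave a visible trace. Cdh13 encodes T-cadherin, a cadherin anchored to the membrane by a lipid and a receptor for adiponectin.

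The values were FPKM per gene symbol, a level scaled by transcript length, and differences below are high-fat diet minus chow on the log2(FPKM + 1) scale unless another contrast is named, which understates changes of genes near 1 FPKM. A gene was called, and is said to have risen or fallen, at a limma p-value below 0.05 after Benjamini-Hochberg adjustment over 12234 tested genes. Summed FPKM was 1337804 to 1394009 in the high-fat libraries and 903346 to 1078671 in the chow libraries, and the number of reads is unknown. Between 11541 and 11672 genes reached 1 FPKM. Pearson's r across genes was 0.987 to 0.990 within diets and 0.973 to 0.980 between them. Scaling all libraries to the same sum moved the median gene by -0.41, and by -0.19 when acinar and insulin genes were left out of the sum, so every change below is relative to the typical gene. Cdh13 itself was listed at 0.247, 0.809 and 0.311 FPKM on the high-fat diet and at 0.691, 0.419 and 0.544 on chow. Its diet difference was -0.11 (adjusted p = 0.722), and its mean in floxed islets was 1.33 ± 0.141 FPKM on the high-fat diet. These values count the whole gene and not the deleted exon alone.

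In islets of high-fat-fed mice, the members of the acinar, endothelial, stromal and globin gene lists that passed the test fell, except for Mgp, which rose. The members of the beta, alpha and delta cell, antioxidant, fatty acid oxidation and ribosomal protein lists that passed all rose. In all, 1107 genes rose (9.05%) and 723 fell (5.91%), together 15.0% of those tested. Of these 1830 genes, 64 rose and 56 fell by at least 1 on the log2 scale, and the median over all tested genes was -0.0034. The 9.05% and 5.91% are the shares against which the counts of each list below are to be read. Without overlap between the 3 libraries of each diet lay 33.7% of all tested genes and 1784 of the called ones. With quantile normalization 53.7% of the called genes were higher, against 60.5% here. The share was 10.9% and 2.30% with sums made equal without and with the acinar and insulin genes, and 64.3% and 66.0% when those fits were read relative to the median gene.

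Acinar transcripts differed most between the diets. The 33 acinar markers together made up 0.0257%, 0.0176% and 0.0116% of summed FPKM in the high-fat libraries and 0.214%, 0.371% and 0.345% in the chow libraries. Every chow library held more than any high-fat library, and the mean share was 16.9-fold higher on chow (0.310% ± 0.0838 against 0.0183% ± 0.00707, SD, n = 3 each). An exact permutation test, two-sided, gave p = 0.1, the smallest that 3 against 3 allows. At 8 weeks on chow the shares of deleted islets were 0.172%, 0.0378% and 0.00682%, so chow libraries at that age spanned the level of the high-fat group. Of the 28 markers that passed the filter on low values, 17 fell and 0 rose, with a median of -3.35. The count of 17 became 7 to 11 when any 1 of the 6 libraries was left out. With the covariate described below it became 3, but that covariate is the mean of these same markers. It takes out their difference by construction and does not test the fall. In bulk RNA, fewer acinar cells and less RNA per acinar cell cannot be told apart.

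**Figure D1:**
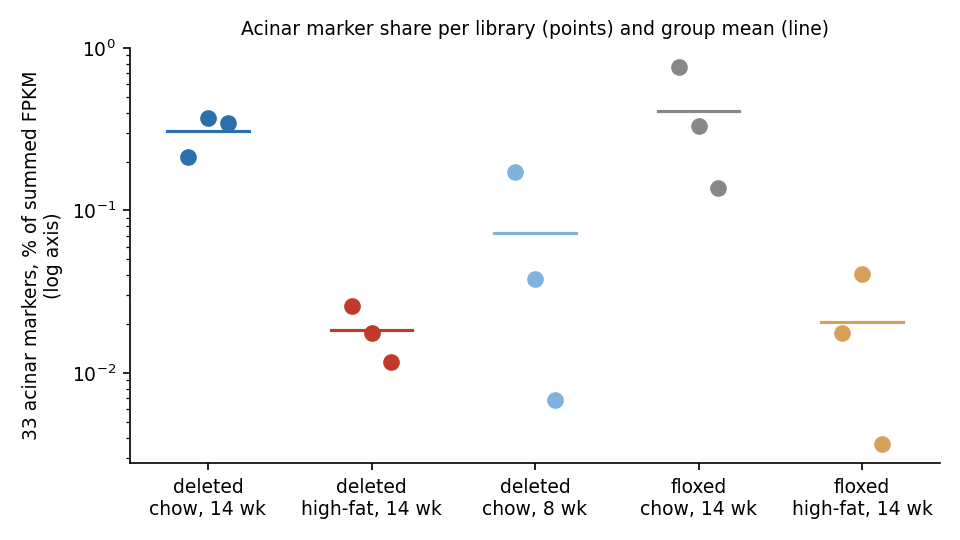
Share of summed FPKM taken by 33 acinar markers (vertical axis, percent, log scale) in each library of 5 groups, with points for libraries and lines for group means. Deleted chow libraries at 14 weeks lay between 0.214% and 0.371%, all above the deleted high-fat libraries at 0.0116% to 0.0257%, while the 8-week chow libraries spread from 0.00682% to 0.172%.

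Cela1, which encodes a pancreatic elastase (chromosome 15, 100674421 to 100687921, mm10), measured 28.000, 37.5 and 26.3 FPKM on the high-fat diet and 275, 397 and 346 FPKM on chow. The diets did not overlap, and the level fell by 3.43 (SE 0.692, adjusted p = 0.00586), an 11.1-fold lower mean. Gp2, the major membrane glycoprotein of zymogen granules, measured 0.218, 0.993 and 0.203 FPKM against 14.3, 27.3 and 18.9 on chow and fell by 3.84 (adjusted p = 0.00179). Both calls held whichever of the 6 libraries was left out. The largest falls of all were those of the pancreatic lipase gene Pnlip (-4.41), its relative Pnliprp1 (-4.36), the carboxyl ester lipase gene Cel (-4.24) and Reg1 (-4.12), a secreted protein gene of acinar cells. Large falls were also measured for the trypsinogen gene Try5 (-4.11), the procarboxypeptidase genes Cpb1 (-3.87) and Cpa1 (-3.69), the elastase gene Cela3b (-3.82), the chymotrypsinogen gene Ctrb1 (-3.73) and the kallikrein gene Klk1 (-3.45). These 10 genes varied widely between libraries. The calls of Pnlip, Cpb1, Ctrb1 and Cpa1 ended whichever of the 6 libraries was left out, with adjusted p up to 0.0900, 0.0983, 0.140 and 0.134. Those of Cel, Reg1, Try5, Cela3b and Klk1 ended for 4 or 5 of the 6, with adjusted p up to 0.0717, 0.116, 0.112, 0.0905 and 0.0665, and that of Pnliprp1 ended without high-fat replicate 3 (0.0524). Trypsinogen genes have near-identical copies, so Try5 is uncertain as a single gene.

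Because the acinar share separated the diets, the model was also fitted with the averaged acinar marker level of each library as a covariate. The count of called genes was then 718, of which 643 were among the 1830. Like the main fit it used all 18 libraries in 6 groups, so the acinar term drew on the spread within every group. Within the 6 libraries compared here, with shares this far apart, the diet term and the acinar term can hardly be separated. Where the covariate moved a list's count by over 1.5 times, that count stands beside the list.

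Among beta cell genes, 12 of 29 rose and 0 fell, with a median of 0.18 (7 rose with the acinar covariate, and 6 rose and 1 fell with quantile normalization). Slc2a2, which encodes the glucose transporter GLUT2 (chromosome 3, 28697903 to 28731359), measured 60.3, 51.1 and 49.4 FPKM on the high-fat diet and 30.4, 29.5 and 30.8 FPKM on chow. All high-fat libraries lay above all chow libraries, and the chow libraries lay close together. The mean was 1.77-fold higher (0.80, SE 0.0922, adjusted p = 1.48e-05), and the 8-week chow libraries lay between, at 34.8 to 42.5 FPKM. Gjd2, the gap junction gene that couples beta cells electrically (chromosome 2, 114009601 to 114013619), measured 18.9, 24.1 and 27.3 FPKM against 7.198, 10.4 and 8.09. It rose without overlap by 1.35 (SE 0.224, adjusted p = 0.000993), the largest difference of the list. Pdx1, a transcription factor required in beta cells, measured 29.6, 27.96 and 31.3 FPKM against 23.4, 23.5 and 22.7 and rose by 0.34 (adjusted p = 0.0138). Its 3 chow values lay close together. The call ended with the acinar covariate, and without high-fat replicate 3 or chow replicate 3 (adjusted p up to 0.0648 with a library left out).

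The hormone genes were among the most abundant transcripts. Ins2 measured 671046, 719156 and 689916 FPKM on the high-fat diet and 419462, 472688 and 363124 FPKM on chow, or 50.2% to 51.6% of summed FPKM against 40.2% to 43.8%. It rose by 0.74 (SE 0.0982, adjusted p = 6.07e-05) and Ins1 rose by 0.75 (adjusted p = 4.22e-05). Both calls ended with quantile normalization, which gives genes of the same rank the same value. Ins2 ranked first in every library, so that setting removes its difference whatever the level and cannot test it. The pair are close copies whose reads can be misassigned. Iapp, which encodes the co-secreted peptide amylin, rose by 0.50, and the zinc transporter gene Slc30a8 of the insulin granule rose by 0.45. Ucn3, the urocortin gene of mature beta cells, rose by 0.25, with an adjusted p of 0.0552 without chow replicate 1. Mafa, a transcription factor gene that activates insulin transcription, was low at 2.72, 3.51 and 3.62 FPKM on the high-fat diet and 1.397, 2.22 and 0.924 FPKM on chow, and its difference of 0.79 did not pass (adjusted p = 0.0983).

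Some genes of the other endocrine cells rose too, with 2 of 5 tested delta and PP cell markers higher and 0 lower (4 higher without chow replicate 2). Sst, the somatostatin gene of delta cells (chromosome 16, 23889573 to 23890958), measured 2909, 2657 and 2556 FPKM against 1735, 1759 and 1349 on chow. The lowest high-fat library exceeded the highest chow library, and Sst rose by 0.75 (SE 0.101, adjusted p = 6.07e-05). Rbp4, a retinol carrier gene on the delta and PP cell list, measured 284, 261 and 248 FPKM against 192, 194 and 158 and rose by 0.55. Of 8 tested alpha cell markers 4 rose and 0 fell (2 with the acinar covariate), with a median of 0.43. Ttr, the transthyretin gene, measured 815, 798 and 647 FPKM against 500.3, 419.9 and 459, without overlap, and rose by 0.71 (adjusted p = 7.42e-05). Irx2, a transcription factor gene of alpha cells, rose by 0.67. The glucagon gene Gcg measured 45768, 41802 and 35511 FPKM against 36545, 30919 and 30702, which overlapped, and its 0.32 did not pass (adjusted p = 0.0817). Ppy, the pancreatic polypeptide gene, spread from 11812 to 21902 FPKM on the high-fat diet and from 4321 to 16598 FPKM on chow, and its 0.92 did not pass (adjusted p = 0.201).

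**Figure D2:**
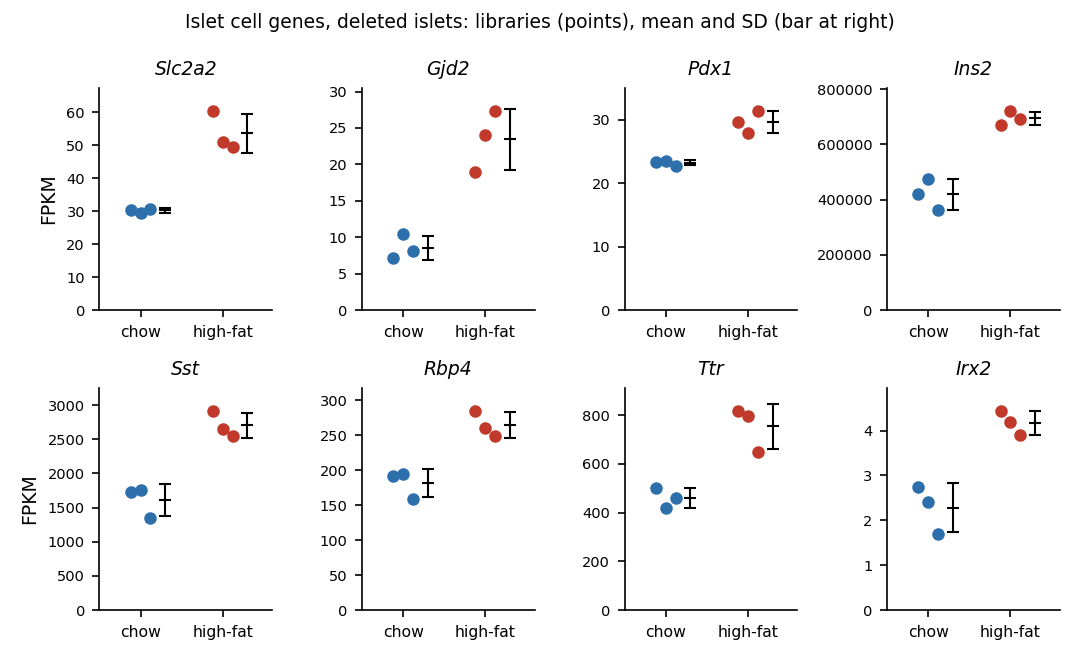
FPKM (vertical axes from 0) of 8 islet cell genes in the 3 chow and 3 high-fat libraries of deleted islets, with the mean and SD beside each set of points. The diets do not overlap for any of the 8 genes, and the gap is widest relative to the level for Gjd2 (18.9 to 27.3 against 7.198 to 10.4 FPKM).

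Antioxidant genes and targets of NRF2 rose together. NRF2 is a transcription factor that is degraded in resting cells and, when oxidants or electrophiles modify its inhibitor KEAP1, activates genes through antioxidant response elements. Of 22 tested members 17 rose and 0 fell (12 with the acinar covariate, 11 relative to the median gene with equal sums over all genes), with a median of 0.37. In floxed islets 15 rose and 2 fell, with a median of 0.31. The remaining members were Gpx4, Cat, G6pdx, Nfe2l2 and Gsta4, between -0.08 and 0.51, and Nfe2l2, which encodes NRF2 itself, was at -0.05.

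Nqo1, the quinone reductase gene often read as a sign of NRF2 activity, measured 12.1, 10.5 and 10.4 FPKM on the high-fat diet and 3.101, 4.89 and 3.19 FPKM on chow. Its mean was 2.96-fold higher without overlap (1.37, SE 0.182, adjusted p = 6.46e-05), and the 8-week chow libraries lay at 4.87 to 8.62 FPKM. Srxn1, which encodes the sulfiredoxin that repairs oxidised peroxiredoxins (chromosome 2, 152105516 to 152111376), measured 119, 96.8 and 95.2 FPKM against 58.01, 52.6 and 54.2 and rose by 0.90 (SE 0.0767, adjusted p = 3.59e-07). The chow libraries of Srxn1 were tight and replicate 1 of the high-fat diet was the highest. Osgin1, an oxidative stress response gene, measured 28.3, 25.6 and 29.3 FPKM against 13.7, 14.7 and 15.5 and rose by 0.88. Gclc, the catalytic subunit gene of the enzyme that limits glutathione synthesis, measured 30.5, 23.4 and 26.9 FPKM against 17.1, 15.7 and 15.98 and rose by 0.69. Txn1, the thioredoxin gene, measured 116, 118 and 116 FPKM against 81.3, 78.5 and 69.1 and rose by 0.61. None of these genes overlapped between the diets. The glutathione transferase gene Gstm1, which has close copies, rose by 0.72, from 501 ± 36.999 to 824 ± 15.6 FPKM (SD, n = 3 each).

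The antioxidant response element holds the letters TGACNNNGC, and 12.4% of 32851 RefSeq promoter windows (250 bases before to 50 after a start site, GRCm38.p6) hold them on either strand. Of 9303 tested genes with a window, 17.4% had such a match, as did 7 of the 17 antioxidant genes with a window and 5 of the 13 of those that rose. Gclc, Gsr, Prdx6, Hmox1 and Gsta4 had no entry. Srxn1, which also rose, held a match too, but not one with its full flanks inside the window upstream of the start site. The 4 stretches below are the matches that met this rule in genes of the list that rose. They were chosen after their values were seen. Each is written along the gene's strand with the match in capitals, here as GCNNNGTCA, the same letters on the opposite strand.
Gclm, chr3:122245387-122245467, plus strand, ending 125 bases before the start: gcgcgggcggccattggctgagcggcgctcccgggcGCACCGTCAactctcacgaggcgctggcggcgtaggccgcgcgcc
Prdx1, chr4:116685430-116685510, plus strand, 124 bases before: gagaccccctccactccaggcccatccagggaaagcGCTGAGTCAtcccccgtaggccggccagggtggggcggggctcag
Txnrd1, chr10:82859078-82859158, plus strand, 83 bases before 1 of its start sites: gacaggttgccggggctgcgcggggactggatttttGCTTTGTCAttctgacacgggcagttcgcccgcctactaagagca
Sod1, chr16:90220670-90220750, plus strand, 47 bases before: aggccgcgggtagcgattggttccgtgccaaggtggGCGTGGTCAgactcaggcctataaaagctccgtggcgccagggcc
The distances run from the end of the match to the start site. Gclm, the modifier subunit gene beside Gclc in glutathione synthesis, measured 126, 128 and 126 FPKM against 101, 105 and 99.97 and rose by 0.31. The peroxiredoxin gene Prdx1 measured 502, 481 and 487 FPKM against 383, 426 and 357 and rose by 0.34, and the superoxide dismutase gene Sod1 measured 239.8, 246 and 249.9 against 166, 186 and 143 and rose by 0.57. The diets did not overlap in any of these. The thioredoxin reductase gene Txnrd1 rose by 0.24 (adjusted p = 0.0145), and its call ended without high-fat replicate 1 or 3 (adjusted p up to 0.0587). That call also ended with the acinar covariate, with quantile normalization and in both fits relative to the median gene. Nqo1, Osgin1, Gstm1 and Txn1 had no match in their windows.

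A pair of genes that handle foreign compounds were among the 12 largest rises. Cyp1a1, the cytochrome P450 gene induced through the aryl hydrocarbon receptor (chromosome 9, 57687928 to 57703824), measured 23.5, 22.5 and 19.5 FPKM on the high-fat diet and 5.102, 6.87 and 5.67 FPKM on chow. The lowest high-fat library was well above the highest chow library, the mean was 3.71-fold higher, and Cyp1a1 rose by 1.73 (SE 0.142, adjusted p = 1.89e-07). Its 8-week chow libraries lay between the 2 groups, at 9.44 to 13.4 FPKM. Ugt2b35, a glucuronosyltransferase gene of a family with close copies, measured 5.67, 4.79 and 5.53 FPKM against 0.663, 0.9597 and 0.3599 and rose by 1.94 (adjusted p = 2.95e-08), with 8-week chow libraries at 2.604 to 3.52 FPKM. Both calls held in every alternative tried.

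Several genes of fatty acid oxidation and PPAR targets rose as well. PPAR receptors bind fatty acids and activate the genes for their import into mitochondria and their breakdown. Of 19 tested members 8 rose and 0 fell (5 with the acinar covariate), with a median of 0.25, and in floxed islets 10 rose and 2 fell. Cpt1a, which encodes the carnitine transferase that admits long-chain fatty acids to mitochondria (chromosome 19, 3322334 to 3385733), measured 29.02, 27.7 and 27.8 FPKM on the high-fat diet and 16.9, 16.3 and 17.1 FPKM on chow. Each group was tight, the groups were far apart, and Cpt1a rose by 0.72 (SE 0.0901, adjusted p = 3.63e-05), a 1.68-fold higher mean. Slc25a20, the carrier of acylcarnitines across the inner membrane, rose by 0.52, the thiolase gene Acaa2 of the last step of the cycle rose by 0.49, and the acyl-CoA dehydrogenase gene Acadl rose by 0.35. Angptl4, which encodes an inhibitor of lipoprotein lipase, measured 2.32, 1.55 and 2.42 FPKM against 0.891, 0.791 and 1.24 and rose by 0.64. The uncoupling protein gene Ucp2 rose by 0.25.

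Of 13 fatty acid synthesis genes 2 rose and 2 fell, with a median of -0.24. With the acinar covariate 0 were higher and 1 lower, and 1 was lower without high-fat replicate 2 or 3 or chow replicate 1 or 3. Mlxipl, which encodes the glucose-sensing factor ChREBP, rose by 0.47 and the malic enzyme gene Me1 by 0.41, while Srebf1, the sterol regulatory factor that drives lipogenic genes, fell by 0.40. With the acinar covariate these 3 did not pass. Of 24 cholesterol synthesis genes 1 was called, and it fell (4.17%, against 5.91% lower of all tested genes). This was the farnesyl diphosphate synthase gene Fdps, which fell by 0.40 and did not pass with the acinar covariate. In this list 2 were called without high-fat replicate 2 or chow replicate 3. Among 16 glycolytic enzymes 0 rose and 2 fell (1 with the acinar covariate, and 0 or 1 when a library other than chow replicate 2 was left out). Ldha, the lactate dehydrogenase gene normally kept low in beta cells, measured 18.7, 19.6 and 17.6 FPKM on the high-fat diet and 41.1, 35.6 and 27.1 FPKM on chow. It fell by 0.84 without overlap (adjusted p = 0.0147), and the call ended without high-fat replicate 3 or chow replicate 1 (adjusted p up to 0.0642).

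**Figure D3:**
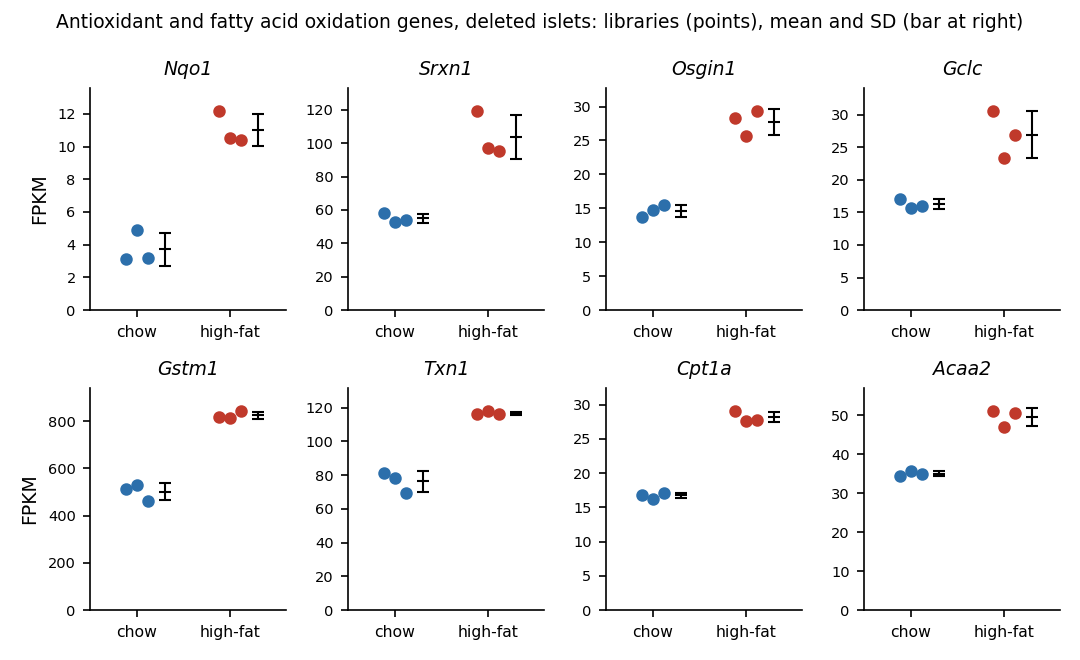
FPKM (vertical axes from 0) of 6 antioxidant genes, the carnitine transferase gene Cpt1a and the thiolase gene Acaa2 in the 3 chow and 3 high-fat libraries of deleted islets, with the mean and SD beside the points. Every high-fat library lies above every chow library for each of the 8 genes.

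Ribosomal protein and respiratory chain genes formed the broadest shift. Of 80 tested cytosolic ribosomal protein genes 69 rose and 0 fell, with a median of 0.54 (44 rose with the acinar covariate, and 4 fell with quantile normalization). Rpl37a of the large subunit measured 906, 944 and 947 FPKM on the high-fat diet and 477, 549 and 426 FPKM on chow, and Rps12 of the small subunit measured 241, 248 and 248 FPKM against 123, 142 and 107. They rose by 0.95 and 0.99, Rps29 rose by 0.78, and chow replicate 3 was the lowest library for all 3 genes. Of 79 nuclear-encoded oxidative phosphorylation genes 44 rose and 1 fell, with a median of 0.28. The complex I gene Ndufb11 rose by 0.58 and the ATP synthase gene Atp5g3 by 0.41. The 44 became 23, and the 1 became 0, with the acinar covariate. The 1 also became 0 when any library other than chow replicate 2 was left out. The 44 became 28 with quantile normalization and 27 without chow replicate 3. Many ribosomal protein genes have processed copies in the genome, so single members are uncertain. These mRNAs were short, with a median longest coding transcript of 914 bases for the ribosomal and 875 for the respiratory genes. Over all genes that median was 2158 bases for those that rose, 3185 for those that fell and 3126 for the others, and the part of transcript length was not tested.

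Genes of protein folding stress fell more often than they rose. The unfolded protein response raises chaperones when proteins misfold in the endoplasmic reticulum, and the integrated stress response acts through the factor ATF4 on amino acid and tRNA synthetase genes. Of 30 folding genes 1 rose and 7 fell (0 rose and 2 fell with the acinar covariate, and 15 fell with quantile normalization), with a median of -0.08. The 7 became 4 without high-fat replicate 2 or 3 or chow replicate 3, and the 1 became 0 when any library other than chow replicate 2 was left out. Of 25 integrated stress response genes 2 rose and 10 fell (1 rose and 4 fell with the acinar covariate, 1 rose without high-fat replicate 2 or chow replicate 1, 6 fell without chow replicate 3), with a median of -0.15. Hspa5, which encodes the chaperone BiP, measured 1394, 1346 and 1313 FPKM on the high-fat diet and 1624, 1652 and 1666 FPKM on chow. It fell without overlap by 0.29 (SE 0.0608, adjusted p = 0.00337), and Edem1, which directs misfolded glycoproteins to degradation, fell by 0.44. Ddit3, the gene of the stress-induced factor CHOP, measured 449, 472 and 462 FPKM against 648, 669 and 639 and fell by 0.50 (adjusted p = 0.00139). Ppp1r15a, the phosphatase subunit gene GADD34 that restores translation, fell by 0.51, the asparaginyl-tRNA synthetase gene Nars by 0.51 and the mitochondrial folate enzyme gene Aldh1l2 by 0.44. Among the integrated stress response genes, Atf4 itself went the other way and rose by 0.25. So did the secreted stress signal gene Gdf15, by 0.78, from 9.84 ± 1.97 to 17.5 ± 1.41 FPKM. The calls of Hspa5, Ddit3, Ppp1r15a and Gdf15 ended with the acinar covariate.

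Granule genes gave a mixed picture, with 7 of 25 higher and 1 lower (4 higher and 0 lower with the acinar covariate). Cadps, a priming factor of dense-core granules, measured 10.6, 11.3 and 11.4 FPKM against 6.27, 7.82 and 4.83 and rose by 0.75. Scg3, a granin, rose by 0.44 and Pam, the enzyme that amidates peptide hormones, rose by 0.52, whereas the synaptotagmin gene Syt4 fell by 0.37. Psmd11, a regulatory subunit gene of the proteasome, fell by 0.55 without overlap (64.3, 60.3 and 64.4 against 88.2, 97.001 and 92.2 FPKM), while 9 of 37 tested proteasome genes rose (1 with the acinar covariate, and 2 to 5 when a library other than chow replicate 2 was left out).

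A set of 5 genes known from cytotoxic lymphocytes was detected in every high-fat library and, apart from 1 of them in 1 chow library, listed at 0 on chow. Ifng, the interferon gamma gene (chromosome 10, 118441046 to 118445892), measured 11.2, 11.8 and 12.3 FPKM on the high-fat diet and was listed at 0 in all 3 chow libraries. It was also at 0 in the deleted libraries of 8 weeks and in the floxed chow libraries of 14 weeks, and measured 15.7 ± 2.22 FPKM in floxed islets on the high-fat diet. The granzyme genes Gzmb (10.96, 10.2 and 8.796 FPKM) and Gzmc (6.09, 5.02 and 4.83 FPKM) were likewise listed at 0 in the chow libraries of deleted islets. Gzma and the granule protein gene Nkg7 lay at 0.640 to 1.72 FPKM on the high-fat diet, and on chow both were at 0 but for 0.110 FPKM of Nkg7 in 1 library. The T cell receptor complex genes Cd3d and Cd3e and the co-receptor gene Cd8a were listed at 0 in all 3 high-fat libraries, as was the B cell gene Ms4a1. The 15 lymphocyte markers summed to 27.5 to 28.8 FPKM on the high-fat diet and 3.27 to 6.53 FPKM on chow. Ifng and Gzmb made up most of that difference, so the sum does not describe the other markers. Only 5 of the 15 passed the filter, and Ifng, Gzmb and Gzma were at 0 in every chow library, so they passed through the high-fat libraries.

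Of 17 type I interferon response genes 0 rose and 2 fell (0 with the acinar covariate or without high-fat replicate 2 or 3 or chow replicate 3, and 1 without chow replicate 1 or 2). Of 13 genes of class I antigen presentation 3 rose and 1 fell (1 and 0 with the acinar covariate, and 0 fell when any 1 library was left out). The class I histocompatibility gene H2-K1, one of a family of close copies, rose by 0.43 (412, 441 and 437 against 326, 318 and 308 FPKM). Of 17 macrophage markers 0 rose and 2 fell. Lyz2, the lysozyme gene of myeloid cells, measured 106, 103 and 88.9 FPKM against 186, 176 and 147 and fell by 0.76, and the complement gene C1qc fell by 0.53. Of 20 inflammatory cytokine and chemokine genes 1 rose and 3 fell. The macrophage chemokine gene Ccl7 measured 1.41, 1.599 and 1.57 FPKM against 4.84, 4.17 and 4.21 and fell by 1.10, and the cyclooxygenase gene Ptgs2 fell by 0.69. Cxcl16, a chemokine that attracts T cells bearing CXCR6, rose by 0.52 (25.2, 23.2 and 22.5 against 15.2, 17.3 and 16.1 FPKM).

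Several vessel, matrix and globin genes fell on the high-fat diet. Of 14 endothelial markers 4 fell and 0 rose. Egfl7, a secreted endothelial factor gene, measured 10.3, 10.2 and 10.1 FPKM against 20.002, 24.3 and 18.4 on chow, without overlap, and fell by 0.96 (adjusted p = 1.25e-05). At 8 weeks on chow Egfl7 lay at 7.21 to 9.74 FPKM, so that the 14-week chow group was the higher of the 3. The receptor genes Tek and Flt1 fell by 0.74 and 0.51, and the adhesion gene Pecam1 by 0.48. Of 21 stromal and matrix genes 10 fell and 1 rose (0 rose with the acinar covariate), with a median of -0.58, but most were near 1 FPKM. The 10 became 6 without high-fat replicate 1 and 4 without high-fat replicate 2 or chow replicate 1. Among genes averaging 5 FPKM or more, 1 was called lower. Col1a1, a chain of type I collagen, measured 0.345, 0.4901 and 1.11 FPKM against 5.65, 2.799 and 2.83 and fell by 1.51, a call that ended without high-fat replicate 2 or chow replicate 1 (adjusted p up to 0.0553). The matrix genes Postn, Lum and Dcn fell by 1.21, 1.13 and 1.22. Mgp, the matrix Gla protein gene, was far more abundant and rose by 0.86 (139, 144 and 164 against 108, 89.5 and 56.4 FPKM), a call that ended without high-fat replicate 3 (adjusted p = 0.0543).

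Of 4 tested erythroid genes, all globins, 3 fell and 0 rose. Hbb-b1 measured 0.301, 0 and 0 FPKM against 5.201, 7.52 and 10.6 on chow and fell by 2.96 (adjusted p = 0.000204), and Hba-a1 measured 2.48, 0.582 and 0.423 FPKM against 9.502, 14.2 and 11.8 and fell by 2.67. Globin genes have close copies. The neuropeptide gene Vip measured 0.341, 0 and 3.54 FPKM against 31.4, 24.7 and 15.4 and fell by 3.71, while 8-week chow libraries spread from 14.6 to 74.1 FPKM. Of 11 duct markers 3 fell and 1 rose (0 rose with the acinar covariate, or when any library other than chow replicate 2 was left out). The osteopontin gene Spp1 fell by 1.06 and the claudin gene Cldn4 by 0.69. Of 10 adipocyte markers, Adipoq, Lep, Plin1, Retn and Cfd were listed at 0 in all 6 libraries, and the other 5 were not. The lipid droplet genes Cidec and Cidea reached at most 0.258 and 1.15 FPKM, and 3 markers passed the filter, of which 1 fell. That was Lpl, the lipoprotein lipase gene also made by islets (-0.33). The summed level of the endothelial markers was 156 to 167 FPKM on the high-fat diet and 177 to 204 FPKM on chow. That of the stromal list overlapped (202 to 237 against 145 to 245 FPKM). Mgp, which rose, was a large part of the stromal sum, so the overlap does not describe the stromal genes that fell. The part of these cells in the other differences was not tested.

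**Figure D4:**
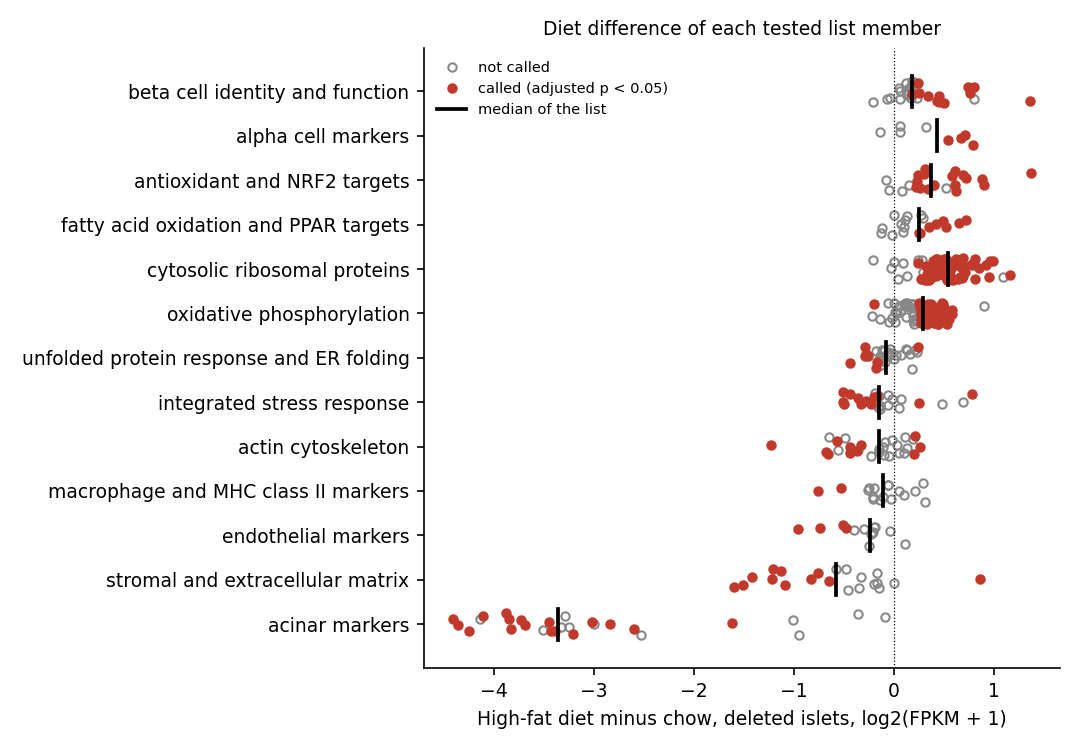
Diet difference in deleted islets (horizontal axis, high-fat diet minus chow, log2(FPKM + 1)) of each tested member of 13 gene lists. Filled points are called genes, open points are not, and black bars are list medians, which run from -3.35 for acinar markers to 0.54 for ribosomal proteins.

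The cytoskeleton held a pair of actin genes that moved in opposite directions. Actb, the beta actin gene (chromosome 5, 142903115 to 142906754), measured 104, 104 and 105 FPKM on the high-fat diet and 208, 224 and 316 FPKM on chow. The 3 high-fat values were nearly equal, every chow value was far above them with replicate 3 the highest, and Actb fell by 1.23 (SE 0.124, adjusted p = 5.51e-06). The gamma actin gene Actg1 measured 1299.9, 1289 and 1214 FPKM against 1065, 1051 and 1052 and rose by 0.26 (with quantile normalization -0.05, adjusted p = 0.656). The sequences of the 2 genes are close, so that reads can be misassigned between them. Over 29 actin cytoskeleton genes 3 rose and 8 fell, among them the membrane linker gene Msn (-0.68). With the acinar covariate or without high-fat replicate 2, 1 rose and 5 fell, and 1 rose without high-fat replicate 1 or chow replicate 3. Of 18 clock genes 2 rose and 2 fell (11.1% each way, against 9.05% higher and 5.91% lower of all tested genes). The counts were 1 each way with the acinar covariate or when any library other than high-fat replicate 1 was left out. Bhlhe40, a repressor of the clock, measured 12.96, 11.8 and 13.4 FPKM against 24.3, 26.8 and 24.7 and fell by 0.94.

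Among the largest rises were several genes that belong to none of these groups. Rn45s, the 45S ribosomal RNA precursor, measured 1058, 1587 and 1403 FPKM on the high-fat diet and 352, 348 and 276 FPKM on chow and rose by 2.04. It measured 1577 ± 94.9 FPKM in floxed islets on the high-fat diet and 317 to 358 FPKM in deleted islets at 8 weeks on chow, so it was high in both high-fat groups. The labels name no batch or date, and diet and anything else that the high-fat libraries share in preparation cannot be told apart. Mbd2, a reader of methylated DNA, measured 49.2, 74.02 and 83.5 FPKM against 14.7, 20.4 and 9.798 and rose by 2.15. Znrf2, a ubiquitin ligase gene, measured 12.6, 25.6 and 25.3 FPKM against 5.04, 4.56 and 2.696 and rose by 2.09. In both, high-fat replicate 1 was the lowest of its group and chow replicate 3 the lowest of all. The same library was the lowest for Ybx3 (1.97), a Y-box protein gene, and for Eid2 (1.73), Foxo6 (1.66) and Lrp3 (1.76), which rose too. Egln1, the prolyl hydroxylase gene of the oxygen-sensing pathway, spread from 4.899 to 16.9 FPKM on the high-fat diet against 3.498 to 4.44 on chow and rose by 1.09. It was the 1 called gene of 14 hypoxia genes and did not pass with the acinar covariate.

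Floxed islets gave the same comparison with 1834 genes higher (15.0%) and 1652 lower (13.5%) on the high-fat diet. Of the genes that rose in deleted islets, 656 also rose in floxed islets (59.3% of the deleted and 35.8% of the floxed rises). Of those that fell, 403 did so in both (55.7% and 24.4%), and 24 and 23 genes were called in opposite directions. Where the diet difference itself differed between genotypes was tested by an interaction, deleted minus floxed, which called 432 genes (3.53%), 174 with a higher (1.42%) and 258 with a lower difference in deleted islets (2.11%). Of these, 146 were also called for diet in deleted islets.

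Endocrine genes were found on the positive side of that interaction. Sst rose by 0.75 in deleted islets and fell by 0.48 in floxed islets, an interaction of 1.23 (SE 0.142, adjusted p = 4.69e-05), and Rbp4 rose by 0.55 and fell by 0.71 (1.26). Slc2a2 rose by 0.80 and fell by 0.25 (1.05, adjusted p = 9.78e-05). Of the beta cell list 7 of 29 members passed the interaction, all higher in deleted islets, and of the alpha cell list 6 of 8 did, 5 of them higher. Gcg did not pass in deleted islets and fell by 0.63 in floxed islets, and its interaction of 0.96 passed (adjusted p = 0.00405; 0.546 with quantile normalization). Cyp1a1 rose by 1.73 in deleted and by 0.45 in floxed islets (interaction 1.28, adjusted p = 0.00120).

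On the negative side were the stress genes Nupr1 and Ddit3 (-0.58). Nupr1, a stress-induced chromatin protein gene (chromosome 7, 126623249 to 126630861), measured 2265, 2429 and 2355 FPKM on the high-fat diet and 2868, 3369 and 2852 FPKM on chow in deleted islets, and fell by 0.36. In floxed islets it rose by 1.24, from 2023 ± 77.2 to 4777 ± 115 FPKM, and the interaction was -1.60 (adjusted p = 1.11e-06). The fall in deleted islets ended with the acinar covariate and without chow replicate 2 (adjusted p = 0.0615 without that library). Of 32 mitosis genes 13 passed the filter. Cdk1, the kinase that drives entry into mitosis, measured 0.0486, 0.111 and 0.516 FPKM on the high-fat diet and 0.733, 0.456 and 0.58000 FPKM on chow in deleted islets, which overlapped. It measured 1.398 ± 0.358 FPKM in floxed islets on the high-fat diet and passed the filter through those libraries alone. Its interaction, listed with the flagged results, therefore supports nothing.

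**Figure D5:**
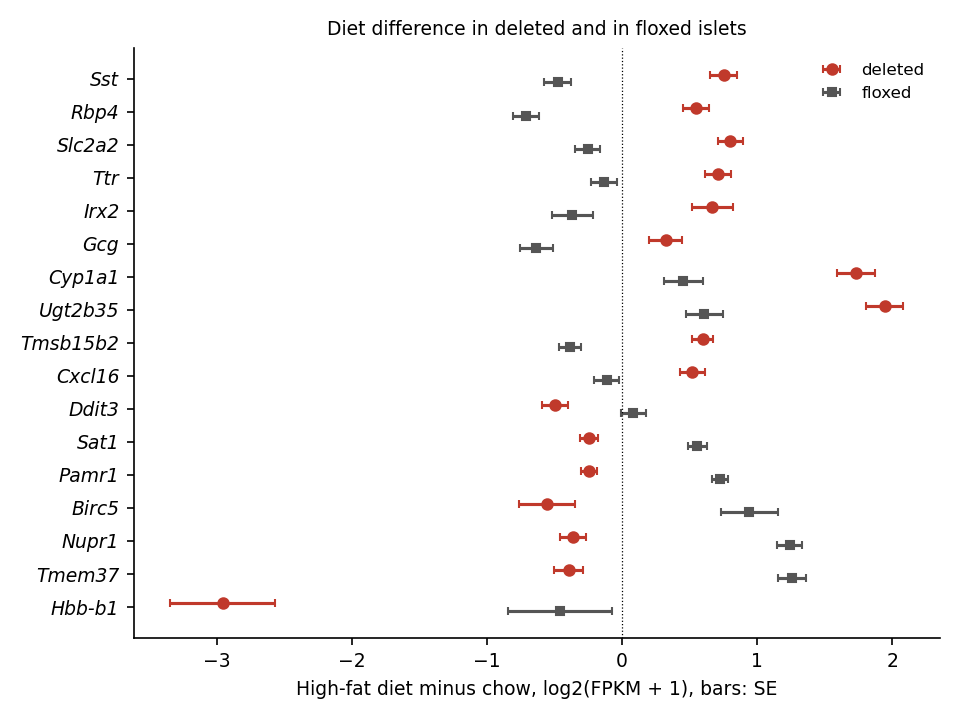
Diet difference (horizontal axis, high-fat diet minus chow, log2(FPKM + 1), bars are SE) of 17 genes in deleted islets (circles) and floxed islets (squares), each with an interaction past the threshold. Sst, Rbp4 and Slc2a2 lie above 0 in deleted and below 0 in floxed islets, and Nupr1 (-0.36 and 1.24) the other way round.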

How the data were processed

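Total RNA of isolated islets was extracted with a miRNeasy kit and made into full-length cDNA and Nextera libraries, which do not mark the strand, per the labels. The authors deposited 1 table of FPKM per library. The submitters' processing notes name build mm10, Cufflinks 2.2.1, SAMtools 0.1.19, TopHat2 2.0.13 and Bowtie2 2.2.3. Settings and annotation are not stated there, and the unit FPKM was inferred from Cufflinks and the values. Median ratios between libraries were near 1 (1.0057 to 1.0072 in the 6 libraries), so the deposited values look rescaled.

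Of 24346 symbols, 5544 were at 0 throughout. Genes with at least 1 FPKM in 3 of 18 libraries (12234) were fitted as log2(FPKM + 1) by limma 3.58.1 (R 4.3.3, statmod 1.5.0) as 6 group means with trended, robust variances. On simulated data with 12234 genes this fit recovered 79% of changes of 0.5 and 98% of changes of 1 in this comparison, with 12 false calls. The simulation changed 100 genes at each size, none of low level. Its noise was independent between genes and it held no acinar difference, so these figures may not hold for the real data. Depth is unknown. The relative value of a single fragment, estimated from low values, spanned 0.997 to 1.26 among the 6 libraries. Positions are from GENCODE and promoters from RefSeq. Plots were drawn with matplotlib 3.10.9 and tables made with pandas 2.3.3 in python 3.11.15.

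The members and 36 gene lists were chosen with earlier results of these data known. Named were 10 islet genes, the 12 largest rises and falls without overlap at 5 FPKM or more, up to 6 members of each list by p, and the 8 smallest interaction p-values. Some of these are not reported here. The promoter genes, Atf4, and the lymphocyte, adipocyte and antioxidant genes given without a test were picked after values were seen. So was the count of a list under an alternative. Alternatives were another pseudocount (0.1), other filters and scalings, quality weights, fewer groups, a replicate block, the acinar covariate and each library left out, the remaining pair being assumed as variable as other groups. Equal sums over all genes, and fits relative to the median gene, were added after seeing the data.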

Additional observations from a re-analysis of the deposited data

Results flagged for a closer look

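The diet difference differed between deleted and floxed islets, by the interaction test, for the following genes named above. Values are the deleted minus the floxed diet difference on the log2(FPKM + 1) scale. It was higher in deleted islets for the hormone genes Sst (1.23) and Gcg (0.96), the delta cell list gene Rbp4 (1.26), the alpha cell genes Ttr (0.84) and Irx2 (1.04), and the beta cell genes Slc2a2 (1.05) and Pdx1 (0.57). It was also higher for Cyp1a1 (1.28), Ugt2b35 (1.34), Lrp3 (0.998), the chemokine gene Cxcl16 (0.63), the thymosin gene Tmsb15b2 (0.98), the lipase gene Lpl (0.51), Srxn1 (0.46), Gclc (0.47) and Cadps (0.68).

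The difference was lower in deleted islets for Nupr1 (-1.60), Tmem37 (-1.65), Pamr1 (-0.97), the polyamine enzyme gene Sat1 (-0.80), Ddit3 (-0.58) and Hbb-b1 (-2.50), and for the mitosis genes Birc5 (-1.50), Cdk1 (-1.13) and Ccnb1 (-1.09). Cdk1 and Ccnb1 passed the filter on low values through the floxed high-fat libraries, where they are high, so their interaction supports nothing further. Tmsb15b2 rose by 0.60 in deleted islets and fell by 0.39 in floxed islets. Pamr1, Tmem37 and Sat1 fell by 0.25, 0.40 and 0.24 in deleted islets and rose by 0.72, 1.26 and 0.56 in floxed islets. The falls of Pamr1, Tmem37 and Sat1 in deleted islets ended with the acinar covariate. They also ended when high-fat replicate 2 was left out (adjusted p up to 0.0560, 0.0946 and 0.0927). For Tmem37 and Sat1 they also ended without chow replicate 2.

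With a library left out, the interaction no longer passed for Lrp3 (adjusted p up to 0.0627), Srxn1 (0.0543), Gclc (0.0759), Cadps (0.0683) and Hbb-b1 (0.0559). With equal sums over all genes, relative to the median gene, it did not pass for Srxn1 (0.136), Gclc (0.174) and Lpl (0.0511). With quantile normalization, which can remove differences of the most abundant genes, it did not pass for Gcg (0.546). The others passed in every alternative run, which for Cdk1 and Ccnb1 adds no support because of how they passed the filter.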

How the results depend on the processing

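The counts of genes called, higher and lower (1830, 1107 and 723) and the interaction count (432) were within 1.5 times these values with another pseudocount, other filters, median-ratio scaling, quantile normalization and only the groups compared. With sample quality weights 2834 were called (1234 lower) and 778 passed the interaction. With the acinar covariate 718 were called, 448 higher and 270 lower. With equal sums 8352 were called (192 higher, 8160 lower), and 4421 (481 and 3940) when acinar and insulin genes were left out; relative to the median gene, 1436 (488 lower) and 1691. Same-numbered libraries did not deviate together (r from -0.0211 to 0.0669), and with the replicate block 1729 genes were called and 409 passed the interaction. With 1 library left out the counts were 1160 to 1649 called, 709 to 1088 higher, 414 to 607 lower and 294 to 327 for the interaction; without high-fat replicates 1, 2 and 3 they were 1517, 1166 and 1284 and without chow replicates 1, 2 and 3, 1232, 1649 and 1160. The acinar share difference of -0.292 percentage points lay between -0.339 and -0.261. Of 108 called genes named, Atf4 not counted, 63 kept the call in every alternative. With the acinar covariate 34 lost it, with quantile normalization 9 and with a library left out 21. Ifng, Gzmb, Gzmc, Gzma and Nkg7 are among the 63. They were at or near 0 on chow in deleted islets, and Ifng, Gzmb and Gzma passed the filter through the high-fat libraries. That these genes kept the call therefore adds no support. Signs turned for Cdh13 (0.042 with the covariate, 0.012 and 0.14 relative to the median gene), Cpb1, Ctrb1 and Cpa1 (0.011, 0.25 and 0.28 with the covariate) and, with quantile normalization, Actg1 (-0.050) and Gcg (-0.0). The covariate is the mean of the acinar markers, so it takes out the difference of acinar genes by construction. Quantile normalization can likewise remove differences of the most abundant genes, Gcg among them. Read totals are unknown, so the counting error of low values could not be computed.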

Other observations

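The genes nearest to the deleted gene in function did not pass. Of 16 tested cadherins, catenins and adiponectin receptors, Cdh13 among them, 0 were called in either direction by limma and 3 had an unadjusted p under 0.05 (0 to 2 called higher and 0 to 1 lower over the alternatives). Those 3 follow. The adiponectin receptor gene Adipor2 measured 5.32, 6.44 and 5.77 FPKM on the high-fat diet and 4.28, 5.601 and 4.16 FPKM on chow (0.28, adjusted p = 0.146), and the diets overlapped. The desmosomal gene Pkp2 was at -0.42 (adjusted p = 0.0598) and the endothelial cadherin gene Cdh5 at -0.23 (adjusted p = 0.162).

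Genes that beta cells normally keep low, and genes of growth, gave few calls that lasted. Of 12 tested disallowed and immature islet genes 4 fell and 0 rose, with a median of -0.49, and the number lower ran from 0, without chow replicate 1, to 6 over the alternatives. Of 20 tested S phase genes 2 fell and 0 rose (0 without chow replicate 1, 0 with the acinar covariate). Rrm2, a ribonucleotide reductase subunit gene needed to make deoxynucleotides, measured 1.53, 1.71 and 1.64 FPKM on the high-fat diet and 3.25, 2.59 and 2.42 FPKM on chow. It fell by 0.51 without overlap, and the adjusted p was 0.0555 without chow replicate 1. Of 11 serotonin and prolactin receptor pathway genes 0 rose and 1 fell (9.09%). Of 18 immediate early genes 3 rose (16.7%) and 1 fell (5.56%). Over all tested genes 9.05% rose and 5.91% fell. With the acinar covariate 0 of the serotonin and prolactin receptor pathway genes were called lower and 0 of the immediate early genes higher, and leaving out single libraries also took these counts to 0.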
